A study of Stylosanthes guianensis with 6 samples.

Results

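The 6 unigenes described here encode homologues of proteins of the phosphate (Pi) signalling pathway in roots of stylo (Stylosanthes guianensis), a tropical forage legume. Unigenes are the gene-level clusters of transcripts that the authors assembled from their reads. Cluster-8255.53008 and Cluster-8255.79060 are described as PHR1-LIKE 1-like, after soybean loci. Cluster-8255.68461 is described as SPX domain-containing protein 3, after chickpea. Cluster-8255.87449, Cluster-8255.63508 and Cluster-8255.73221 are described as SPX domain-containing membrane protein At4g22990-like, after soybean. They are 2 PHR1-like and 4 SPX unigenes out of 173014 listed in the deposited tables. The measured values of these same LP and HP libraries chose them, as PHR1-like and SPX unigenes that were lower under low P. Their difference between the treatments is therefore given as a description, and their calls are counted without a p-value and support nothing. The descriptions of the 4 SPX unigenes come from labels of the study's heatmap and could not be checked against its table of changed genes, so the classes SPX protein and SPX membrane protein rest on those labels.

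Plants of cultivar RY2 were germinated, kept at 250 µM KH2PO4, and then supplied with 0 µM (low P, LP) or 250 µM (high P, HP) for 21 d. Root RNA was sequenced in 3 libraries per treatment, and each replicate was a hydroponic box with 3 seedlings, so a library pools several plants. Both treatments share the cultivar and the greenhouse, and their nutrient solutions differed in KH2PO4. RY5, the second cultivar of the study, is not among these libraries. Libraries were grouped by the treatment in their titles. The labels also carry a phosphorus field in which these doses are swapped, 250 µM for the libraries titled LP and 0 µM for those titled as control, and the doses of the study were used. The labels name root as the tissue, while their extraction text names leaves.

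In Arabidopsis and rice, PHR1 and its close relatives are MYB transcription factors of the MYB-CC class that bind a short promoter element and switch on genes of the Pi starvation response. Proteins with an SPX domain bind inositol pyrophosphates, which are abundant when Pi is plentiful. Small SPX proteins carry little beside that domain, and when Pi is plentiful they hold PHR factors away from DNA. Several genes of these small SPX proteins are themselves targets of PHR factors. The Arabidopsis protein At4g22990 belongs to another class, in which the SPX domain is joined to a membrane transporter domain and whose best known member moves Pi into the vacuole.

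The libraries held 15586189 to 17820914 estimated read counts under HP and 20643113 to 21784583 under LP. Between 34.0% and 36.4% of the estimated counts in a library were not whole numbers, because reads that fit several unigenes were divided among them. Of the 173014 unigenes, 152344 had at least 1 read and 62040 passed the filter on low counts. Spearman correlations of expression across unigenes were 0.892 to 0.915 between libraries of one treatment and 0.785 to 0.814 between treatments, and no pair of libraries of one treatment was alike within sampling noise. Of 5 unigenes described as photosynthetic or RuBisCO-associated proteins, 5 were called higher, where 6.09% of all tested unigenes were called higher. Descriptions were available only for unigenes in the study's tables of changed genes, so these 5 had already been selected for a change. The most abundant of them, photosystem I subunit F (Cluster-8255.71546), was listed at 0 FPKM in the 3 HP libraries and at 36.1, 45.2 and 33.2 FPKM under LP. A RuBisCO-associated protein (Cluster-8255.20685) had 0.28, 0.48 and 0.23 FPKM under HP and 30.2, 31.9 and 43.1 FPKM under LP. The other 3 match algal chlorophyll-binding proteins and had at most 0.27 FPKM in an HP library and 1.2 to 5.54 FPKM under LP. These transcripts move with the treatment contrast, and their part in the results below was not tested.

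All 6 members passed the filter, and all 6 were called lower under LP with an adjusted p below 0.05 and a level at least 2-fold apart, a log2 fold change of 1. In the same comparison 7.1% of the tested unigenes were called lower and 6.09% were called higher. Nothing is read from the members' count, since this contrast chose them. Their log2 fold changes ranged from -4.58 to -1.56 with a median of -2.37, against a median of 0.03 over all unigenes tested. On the scale of log2(FPKM + 1), which understates changes of low genes, the differences of Cluster-8255.68461, Cluster-8255.87449 and Cluster-8255.63508 were -3.81, -1.37 and -2.03. In bulk roots, fewer cells of a type and less RNA per cell cannot be told apart.

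The PHR1-like factors were both among the more abundant unigenes under HP, and both were lower in every LP library. Cluster-8255.79060, a homologue of the Arabidopsis factor PHL1 that acts beside PHR1, had 29.6, 29.2 and 32.4 FPKM (fragments scaled for transcript length and for library size) in the HP libraries and 9.11, 12.4 and 8.75 FPKM in the LP libraries. Its LP range ended far below its HP range, and LP replicate 2 was the highest LP library. The means were 30.4 ± 1.75 FPKM under HP and 10.1 ± 2.02 FPKM under LP (SD, n = 3). Its TMM-normalized read count was 2.99-fold lower under LP, a log2 fold change of -1.58.

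Cluster-8255.53008, the other PHL1 homologue, had 11.5, 13.8 and 13.8 FPKM in the HP libraries and 3.37, 3.65 and 3.56 FPKM in the LP libraries. HP replicate 1 was the lowest of its group and was still 3.11 times the highest LP library in normalized count. The means were 13.1 ± 1.32 FPKM under HP and 3.53 ± 0.143 FPKM under LP (SD, n = 3). The normalized count was 3.67-fold lower under LP, a log2 fold change of -1.87, and the 3 LP libraries lay closer together than those of any other member, with a coefficient of variation of 4.25% of the normalized count.

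Cluster-8255.79060 exceeded Cluster-8255.53008 in FPKM in every library, by 2.11 to 2.56 times under HP and by 2.46 to 3.4 times under LP. These ranges of the ratio overlap, and the higher PHR1-like unigene stayed the higher one in both treatments. Added together, the 2 PHR1-like unigenes had 41.1, 43.05 and 46.2 FPKM under HP and 12.5, 16.1 and 12.3 FPKM under LP, so their summed level was 3.19-fold lower.

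The small SPX protein had the largest drop among the members. Cluster-8255.68461, whose Arabidopsis namesake SPX3 is a single-domain SPX protein induced by Pi starvation, had 25.8, 29.3 and 31.5 FPKM in the HP libraries. The LP libraries had 1.04, 0.66 and 1.84 FPKM. No LP library came near the HP range, and the lowest HP library was 13.5 times the highest LP library in normalized count.

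The means of Cluster-8255.68461 were 28.9 ± 2.88 FPKM under HP and 1.18 ± 0.602 FPKM under LP (SD, n = 3). Its normalized count was 24.0-fold lower, a log2 fold change of -4.58. In estimated counts this was 1212, 1205 and 1351 reads under HP against 60, 36 and 102 reads under LP, so the LP values rest on few reads. Their coefficient of variation was 52.4% under LP and 10.4% under HP, LP replicate 3 being the highest and LP replicate 2 the lowest. Among the unigenes with reads in a library, this SPX unigene stood at the 93.5th to 94.7th percentile of FPKM under HP and at the 42.0th to 63.5th under LP.

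The 3 SPX membrane proteins had separate levels in both treatments and drops of unlike size. Cluster-8255.73221, the most abundant, had 14.8, 14.5 and 16.95 FPKM in the HP libraries and 6.08, 5.22 and 4.18 FPKM in the LP libraries. The groups did not overlap, and the lowest HP library was 2.38 times the highest LP library in normalized count. The means were 15.4 ± 1.34 FPKM under HP and 5.16 ± 0.951 FPKM under LP (SD, n = 3), and the normalized count was 2.96-fold lower with a log2 fold change of -1.56.

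Cluster-8255.63508, a homologue of the same Arabidopsis membrane protein, had 7.29, 6.71 and 6.71 FPKM under HP and 0.91, 0.85 and 1.04 FPKM under LP. The replicates of each treatment were close to one another and the lowest HP library was 6.27 times the highest LP library in normalized count. The means were 6.9 ± 0.335 FPKM and 0.933 ± 0.097 FPKM (SD, n = 3), a 7.31-fold lower normalized count under LP and a log2 fold change of -2.87.

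Cluster-8255.87449, the scarcest of the 6, had 2.46, 1.93 and 1.42 FPKM under HP and 0.1, 0.05 and 0.24 FPKM under LP. In estimated counts these were 104, 72 and 55 reads against 5, 3 and 12 reads. The lowest HP library was 5.75 times the highest LP library in normalized count, and LP replicate 3 held more reads than the other LP libraries combined. The normalized count was 14.1-fold lower under LP with a log2 fold change of -3.82, which moved to -4.56 without LP replicate 3. With so few reads in the LP libraries, the size of this drop is known less well than that of the other members.

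**Figure D1:**
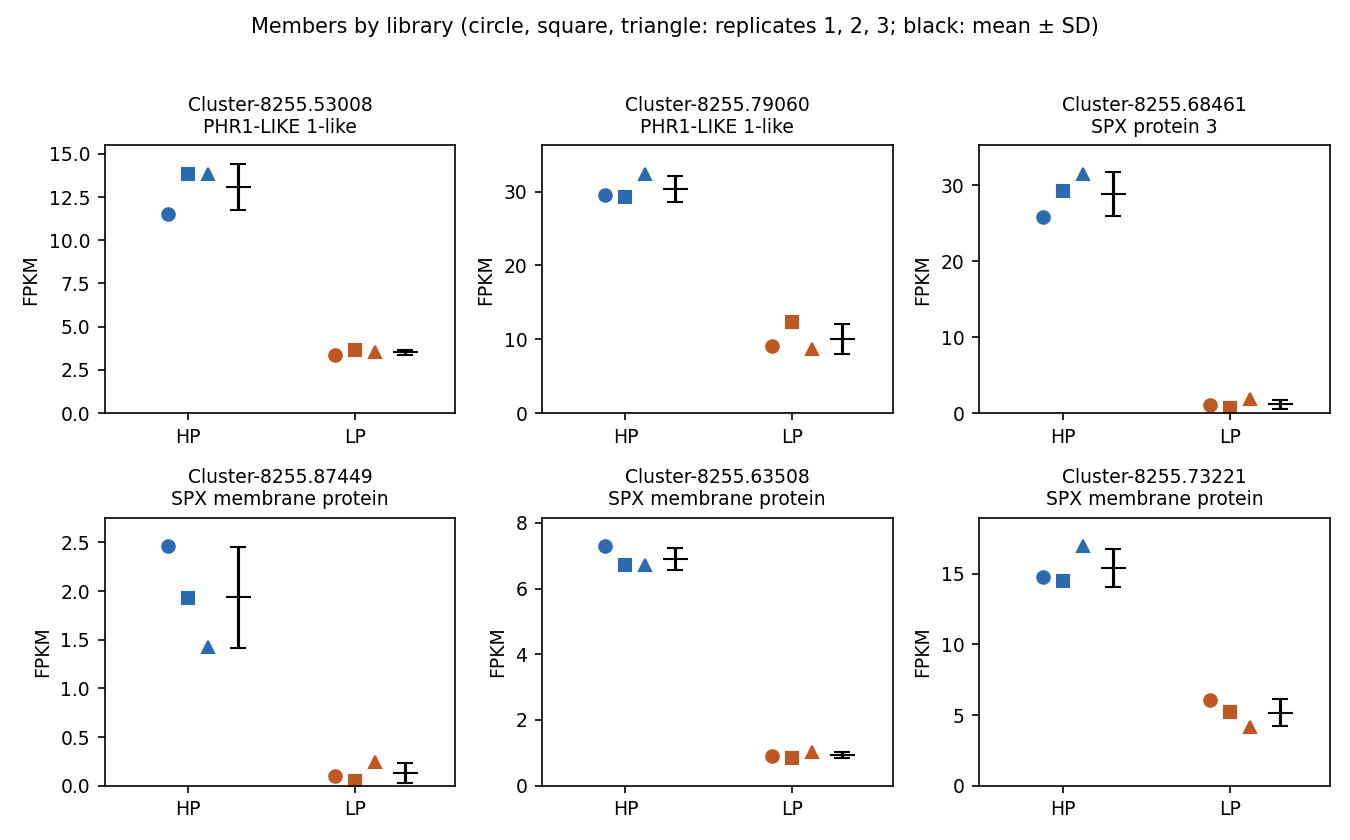
FPKM of each of the 6 unigenes in the 3 HP and 3 LP libraries, with 1 panel per unigene and the mean ± SD (n = 3) in black beside each treatment. In every panel the LP points lie below all HP points, and the gap is widest for Cluster-8255.68461 (28.9 against 1.18 FPKM) and narrowest in fold for Cluster-8255.73221 (15.4 against 5.16 FPKM). The members were chosen as lower under LP in these libraries, so nothing is read from this separation.

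Among the 3 SPX membrane members, the mixture differed between the treatments as well as the sum. All 3 were chosen as lower under LP, so neither their sum nor their shares describe all SPX membrane transcripts of the roots. Summed, the 3 unigenes had 24.5, 23.2 and 25.1 FPKM under HP and 7.09, 6.12 and 5.46 FPKM under LP, a 3.9-fold lower level. Cluster-8255.73221 made up 60.2%, 62.7% and 67.6% of that sum under HP and 85.8%, 85.3% and 76.6% under LP, so its share was higher in each LP library than in any HP library. Cluster-8255.63508 made up 26.8% to 29.7% under HP and 12.8% to 19.1% under LP. Cluster-8255.87449 made up 5.66% to 10.03% under HP and at most 4.4% under LP.

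In FPKM, which is scaled for length, the order of the members under HP was Cluster-8255.79060, Cluster-8255.68461, Cluster-8255.73221, Cluster-8255.53008, Cluster-8255.63508 and Cluster-8255.87449. The leading pair, a PHR1-like factor and the small SPX protein, overlapped in range, while the ranges of the other 4 neighbouring pairs did not overlap. Under LP the SPX protein Cluster-8255.68461 moved from the second place to the fourth, where its range overlapped that of Cluster-8255.63508. The other 4 neighbouring pairs did not overlap under LP. The 2 PHR1-like unigenes and Cluster-8255.73221 kept their order relative to one another, with Cluster-8255.79060 above Cluster-8255.73221 and Cluster-8255.53008 last.

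All 6 members had reads in every LP library, but they stood at different places in the transcriptome. By FPKM percentile among unigenes with reads, Cluster-8255.79060 was at 94.4 to 94.8 under HP and at 84.6 to 88.1 under LP. Cluster-8255.87449 was at 56.5 to 66.8 under HP and at 0.609 to 18.9 under LP. Cluster-8255.53008, Cluster-8255.73221 and Cluster-8255.63508 lay between these, at 80.4 to 90.1 under HP and at 48.2 to 81.3 under LP.

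Among replicates of one treatment, the members did not all vary together. Within LP, the SPX unigenes Cluster-8255.68461, Cluster-8255.87449 and Cluster-8255.63508 were each highest in replicate 3, at 0.76, 0.83 and 0.18 above their LP means in log2 CPM. Each of these was lowest in replicate 2, at -0.71, -0.63 and -0.16. The PHR1-like Cluster-8255.79060 was highest in LP replicate 2, at 0.28 above its mean, and the SPX membrane unigene Cluster-8255.73221 was lowest in LP replicate 3, at -0.25. Within HP, deviations were at most 0.18 in size for all members but Cluster-8255.87449, which ranged from -0.40 in HP replicate 3 to 0.36 in HP replicate 1. With 3 libraries per treatment, these are descriptions of the libraries.

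**Figure D2:**
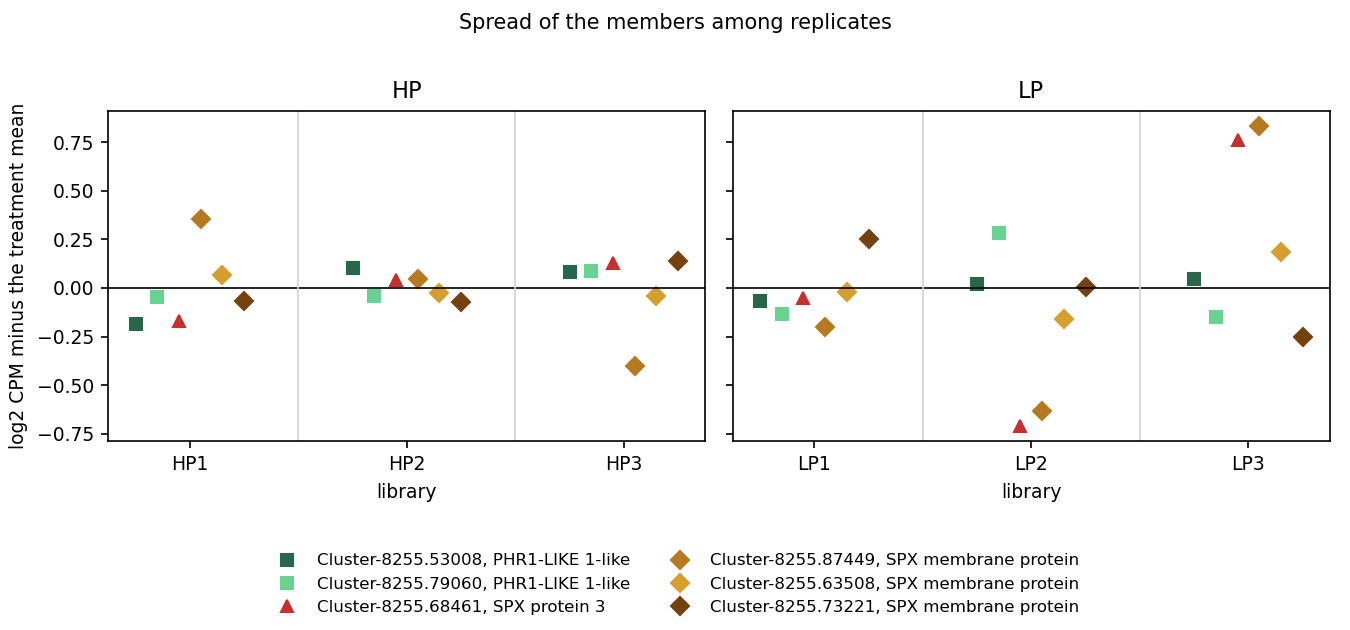
Log2 CPM of each unigene minus its mean in the same treatment, for the 3 HP libraries (left) and the 3 LP libraries (right), with 1 point per unigene and library. In LP replicate 3 the SPX unigenes Cluster-8255.68461 and Cluster-8255.87449 stand at 0.76 and 0.83 above their means, while Cluster-8255.79060 and Cluster-8255.73221 are below theirs.

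A set of SPX unigenes that the study selected as changed differed from the 4 SPX members in direction. The rows of the study's list of changed genes used here hold 9 further unigenes described as SPX domain-containing proteins 1, 2 or 3, and 9 of 9 were called higher under LP and 0 were called lower. Over all tested unigenes, 6.09% were called higher and 7.1% lower. The median log2 fold change of the 9 was 5.77, against 0.03 over all tested unigenes. The study selected these unigenes on the same libraries, and the rows used hold extreme changes, so the count is not independent evidence of direction. It reports both raised and lowered SPX genes, and the lowered ones are the 4 members set apart here. The split of 9 to 0, and the contrast with the members, therefore follow from that separation. SPX unigenes that did not change are outside these rows by construction.

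The highest in FPKM under LP was Cluster-8255.17821, an SPX protein 3 homologue, with 0.09, 2.56 and 0.07 FPKM under HP and 225.7, 280.7 and 292.2 FPKM under LP. The length implied by its counts and FPKM was only 200 to 208 bases. It held 984 to 1258 estimated reads in an LP library. Cluster-8255.18191, described as the SPX protein 1 of stylo itself, had 3.71, 3.72 and 4.25 FPKM under HP and 188.8, 198.7 and 229.9 FPKM under LP, a log2 fold change of 5.74. Its estimated reads were more numerous, at 6801 to 8039 in an LP library. A further pair of SPX protein 3 homologues also passed 100 FPKM in each LP library.

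Cluster-8255.114442 had 0, 0.49 and 0 FPKM under HP and 167.5, 159.5 and 206.3 FPKM under LP. Cluster-8255.17953 had 0.28 to 0.81 FPKM under HP and 102.1 to 128.2 FPKM under LP. Both are described as SPX protein 3-like after soybean and were scarce in each HP library. There the member Cluster-8255.68461, described as SPX protein 3 after chickpea, had 25.8 to 31.5 FPKM. The other 5, Cluster-8255.76615, Cluster-8255.18192, Cluster-8255.114752, Cluster-8255.50610 and Cluster-8255.45695, had mean levels of 36.6, 18.2, 2.97, 2.1 and 1.71 FPKM under LP and of at most 0.683 FPKM under HP.

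The levels of Cluster-8255.68461 and of the 9 can be set side by side as a description, in which the direction of each was fixed by its selection. Under HP, the member Cluster-8255.68461 made up 82.9%, 75.8% and 85.8% of its own FPKM and those of the 9 further SPX unigenes added together. Under LP its share was 0.137%, 0.0827% and 0.197%. The summed level of the 9 was 5.32, 9.35 and 5.2 FPKM under HP and 755.9, 797.1 and 932.4 FPKM under LP. Neither these sums nor the shares describe all SPX transcripts of the roots, and short unigenes such as Cluster-8255.17821 weigh in them by FPKM, not by reads.

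**Figure D3:**
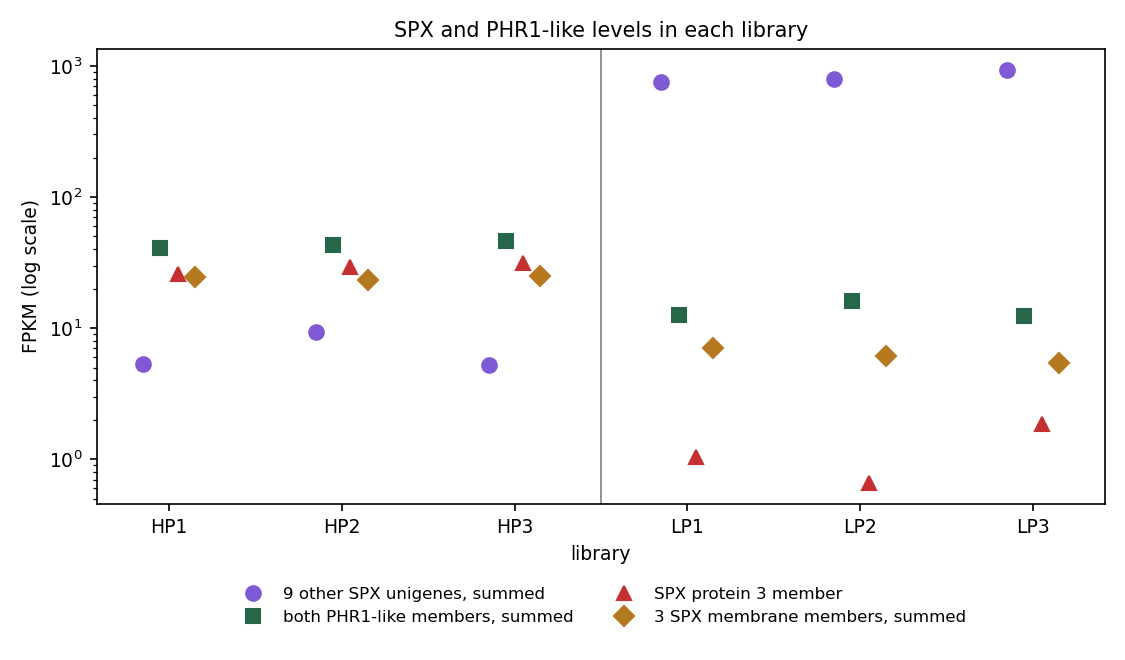
FPKM on a log scale in each of the 6 libraries for the 2 PHR1-like unigenes summed, Cluster-8255.68461, the 3 SPX membrane unigenes summed and the 9 further SPX unigenes summed. The sum of the 9, each selected as changed in these libraries, lies at 5.2 to 9.35 FPKM under HP, below the other series, and at 755.9 to 932.4 FPKM under LP, above them.

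PHR1-like factors belong to a wider class of MYB proteins that also holds APL, known in Arabidopsis for phloem identity. The study's list of MYB unigenes holds 11 described as PHR1-like or APL, the 2 members among them, of which 4 were called higher, 4 were called lower and 3 were not called, beside 6.09% called higher and 7.1% called lower over all tested unigenes. That list holds MYB unigenes selected as changed in these libraries, so the counts say nothing of the share of the class that changed. The 4 called lower are the 2 members and the APL-described Cluster-8255.41163 and Cluster-8255.41164. The latter pair had mean levels of 14.4 and 19.8 FPKM under HP and 3.89 and 5.89 FPKM under LP, with log2 fold changes of -1.87 and -1.74 that lie within the range of the members. Cluster-8255.41163 varied among the LP libraries, at 4.42, 1.51 and 5.73 FPKM. With a library left out, the lower calls of this list numbered 3 to 5.

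The 4 called higher were all described as APL. Cluster-8255.78682 was the most abundant of them, with 6.2, 5.29 and 7.17 FPKM under HP and 27.4, 29.3 and 34.2 FPKM under LP, a log2 fold change of 2.30. Cluster-8255.102113, Cluster-8255.112414 and Cluster-8255.47767 reached mean levels of 5.45, 1.57 and 1.4 FPKM under LP, with log2 fold changes between 1.27 and 3.22. The 3 without a call, Cluster-8255.109840, Cluster-8255.18417 and Cluster-8255.85397, had mean levels of at most 2.31 FPKM in either treatment. The number called higher was 2 without HP replicate 2, without HP replicate 3, without LP replicate 1 and without LP replicate 2. Over all 41 MYB unigenes of the list, 18 were called higher and 16 lower, with a median log2 fold change of 1.02. These too were all selected as changed, and the same shares of all tested unigenes apply. Leaving out LP replicate 1 reduced the higher calls to 11 and leaving out HP replicate 1 reduced the lower calls to 10.

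Phosphatases, Pi transporters and nitrate transporters are given for context from lists that the study also chose as changed on these libraries. Nearly all of their unigenes were called for that reason, where 6.09% of all tested unigenes were called higher and 7.1% lower. Of 23 unigenes described as purple acid phosphatases or related phosphatases, enzymes that release Pi from organic compounds, 21 were tested. Of these, 20 were called higher and 1 lower, with a median log2 fold change of 3.55. The highest mean over the 6 libraries among those called higher was that of Cluster-8255.83560, purple acid phosphatase 8-like, at 30.5 ± 2.89 FPKM under HP and 142.4 ± 5.96 FPKM under LP (SD, n = 3), while Cluster-8255.46687, an inactive purple acid phosphatase 27 homologue, was slightly higher under LP alone, at 144.6 FPKM. The one called lower was a phytase-described unigene, Cluster-8255.85731, at 6.47 FPKM under HP and 1.95 FPKM under LP, and leaving out HP replicate 1 brought the lower calls to 2.

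Of the 17 Pi transporters tested, 11 were called higher and 5 lower. The most abundant unigene called lower was Cluster-8255.72767, described as phosphate transporter 3, with 60.1, 61.9 and 62.1 FPKM under HP and 17.7, 19.2 and 29.8 FPKM under LP. Its log2 fold change of -1.45 is near those of Cluster-8255.79060 and Cluster-8255.73221. The most abundant unigene called higher, the glycerol-3-phosphate transporter Cluster-8255.64283, had means of 84.8 FPKM under HP and 337.1 FPKM under LP. Of the 30 nitrate transporters of the list that were tested, 24 were called lower and 6 higher. Cluster-8255.68504, a homologue of nitrate transporter 3.1 and a partner of root nitrate uptake proteins, had a mean of 1799 FPKM under HP and 140.6 FPKM under LP, and among the unigenes called higher the peptide and nitrate transporter Cluster-8255.43727 was the most abundant, at 21.0 and 42.8 FPKM.

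**Figure D4:**
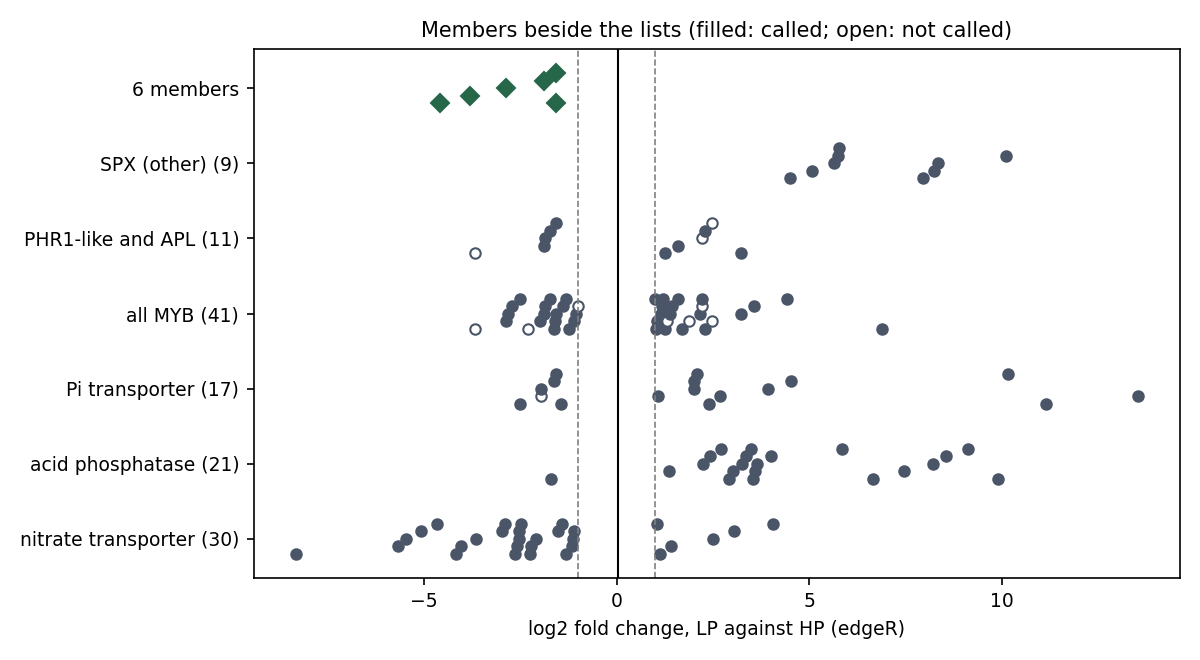
Log2 fold change of LP against HP for the 6 unigenes (diamonds) and for each tested unigene of the study's lists (circles, filled where called), with dashed lines at -1 and 1 and a solid line at the median of all tested unigenes, 0.03. The 6 diamonds lie between -4.58 and -1.56, while the 9 further SPX unigenes lie between 4.50 and 10.11.

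Each member was set beside the described unigenes by the Pearson correlation of log2 CPM over the 6 libraries, among 1291 or 1292 of them, which fall in 2 groups, so these values mostly restate the difference between treatments. The described unigenes are largely ones that the study selected as changed. Between 2405 and 4120 unigenes of all tested had a correlation over 0.95 with a given member. For Cluster-8255.53008 the closest 3 were a leucine-rich repeat receptor-like kinase (Cluster-8255.27377, r = 0.9993), a tetratricopeptide repeat protein (Cluster-8255.102853, r = 0.9993) and a homologue of the strigolactone receptor D14 (Cluster-8255.52157, r = 0.9992), all listed at a mean of 0 FPKM under LP. For Cluster-8255.79060 they were WRKY50 (Cluster-8255.76504, r = 0.9982), sulfate transporter 1.3 (Cluster-8255.27692, r = 0.9978) and zinc transporter 2 (Cluster-8255.53893, r = 0.9972).

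For the SPX unigene Cluster-8255.68461 the closest were the NAC domain factor NAC1 (Cluster-8255.55087, r = 0.9982), a U-box protein (Cluster-8255.74375, r = 0.9978) and a potassium transporter-like protein (Cluster-8255.67231, r = 0.9977). NAC1 was at 40.4 FPKM under HP and 3.33 FPKM under LP. For Cluster-8255.87449 they were the aquaporin PIP2;2 (Cluster-8255.72249, r = 0.9984), a nitrate excretion transporter (Cluster-8255.100551, r = 0.9965) and the phytase-described Cluster-8255.85731 (r = 0.996).

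For Cluster-8255.63508 the closest were a resistance protein (Cluster-8255.76290, r = 0.999), the copper-transporting ATPase RAN1-like (Cluster-8255.73169, r = 0.9989) and the zinc transporter ZIP1 (Cluster-8255.67815, r = 0.9987). For Cluster-8255.73221 they were WRKY1b (Cluster-8255.96328, r = 0.9953), the zinc finger protein JACKDAW-like (Cluster-8255.67447, r = 0.9927) and a peptide and nitrate transporter (Cluster-8255.64644, r = 0.9925).

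The counts of the members were estimates that share reads with other unigenes. The estimated counts were not whole in 5 or 6 of the 6 libraries for each member, so part of their reads fitted more than 1 unigene. The lengths implied by the deposited counts and FPKM were 737 to 745 bases for Cluster-8255.79060 and 1326 to 1334 bases for Cluster-8255.53008. They were 2629 to 2644 bases for Cluster-8255.68461, 2346 to 2490 for Cluster-8255.87449, 1958 to 1972 for Cluster-8255.63508 and 1403 to 1411 for Cluster-8255.73221. These are effective lengths of the assembled sequence, shorter than the sequence itself, and the 3 SPX membrane unigenes differ in them although they carry the same description. Whether any of the 6 are parts or near-identical copies of one gene cannot be read from the tables.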

How the data were processed

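Paired reads were obtained from 6 root libraries of RY2. Per the methods of the study, the authors removed adaptors and reads of low quality, assembled the clean reads with Trinity and estimated expression with RSEM at default settings. The submitters' processing notes name Bowtie2 2.2.3. The authors deposited estimated counts per unigene and library, which RSEM does not normalize, and FPKM values, which are scaled for unigene length and library size. Whether counting used strand is not stated in those sources, so antisense and overlapping unigenes are uncertain. No genome positions or sequences were used, and descriptions were taken from the study's supplementary tables and, for the 4 SPX members, from the labels of its heatmap.

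Estimated counts were rounded to whole numbers, filtered with filterByExpr at a minimum count of 10 and scaled by TMM, with factors of 0.975 to 1.01. The quasi-likelihood test of edgeR 4.0.16 (R 4.3.3) compared LP with HP, and p-values were adjusted by the Benjamini-Hochberg method over the 62040 unigenes. The common biological coefficient of variation was 0.42. Calls needed an adjusted p below 0.05 together with a log2 fold change of 1 or more in size, as in the study, which names DESeq2 for its own test. Folds of a unigene were taken from the log2 fold change of the edgeR fit. Folds of summed levels are ratios of mean FPKM. Log2 CPM used a prior count of 2. With 3 libraries against 3, an exact permutation test of 1 unigene cannot give a p below 0.1. The steps were tested on simulated data. Alternatives were DESeq2 1.42.0, DESeq2-type size factors, library sizes alone, no filter on low counts, limma 3.58.1 on log2(FPKM + 1) and log2(FPKM + 0.1), a test that the change exceeds 1 in log2, a replicate block and the omission of each library.

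The 6 members and all lists were chosen with earlier results of these data known. The unigenes named are the members, the SPX, PHR1-like and APL unigenes of the lists, the 3 described unigenes most correlated with each member, and the called unigene of highest mean FPKM in each direction in the other lists. Of the study's table of changed genes, the leading rows were used. Its columns of fold changes and p-values were not.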

Additional observations from a re-analysis of the deposited data

How the results depend on the processing

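The members were chosen as lower in these same libraries, so their calls under other settings are no support. All 6 were called lower under LP in each of the 14 alternatives. On the log2(FPKM + 1) scale the log2 fold changes of Cluster-8255.53008, Cluster-8255.68461, Cluster-8255.87449 and Cluster-8255.63508 were -1.63, -3.81, -1.37 and -2.03, and with log2(FPKM + 0.1) that of Cluster-8255.87449 was -3.20. A larger pseudocount by its construction shrinks changes at low levels. Leaving out each library in turn moved Cluster-8255.87449 between -4.56 and -3.47. Under a test that the change exceeds 1 in log2, the PHR1-like and APL list had 2 higher calls, the MYB list 4 higher and 7 lower, the Pi transporter list 2 lower, the phosphatase list 0 lower and the nitrate transporter list 2 higher. With a library left out, higher calls were 2 to 4 in the PHR1-like and APL list and 11 to 17 in the MYB list. Lower calls were then 3 to 5 in the PHR1-like and APL list, 10 to 18 in the MYB list and 1 to 2 in the phosphatase list. The cause of these shifts in counts was not tested.

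Over all unigenes, 8183 were called, against 3053 when the change had to exceed 1 in log2 and 5167 with the replicate block. Deviations of same-numbered libraries correlated at -0.01, 0.04 and 0.05 over the tested unigenes. No strong pairing by number was seen, though a small shared effect could go unseen. With the replicate block all 6 members were called, which is no support because these libraries chose them. Depth limits Cluster-8255.87449 most, with 3 to 12 reads in an LP library.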
